A study of Mus musculus with 32 samples.

Results

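The last interval of the rTg4510 time course, from 6 to 8 months of age, was examined within the transgenic microglia across all genes. The members were the 7 rTg4510 libraries that passed quality control at these ages, 4 at 6 months and 3 at 8 months, of 32 microglia libraries in the series. They were chosen by genotype and age from the labels, and replicate 4 of 8 months, which failed quality control, was left out. The rTg4510 mice were female and carried a human P301L tau responder together with a CaMKIIα-tTA transgene, which drives tau in forebrain neurons and not by design in microglia. The WT mice were female littermates of the same 129/FVB F1 background without either transgene. They gave 4 libraries at 6 months and 3 at 8 months. Each library was 1 pool of microglia taken with CD11b beads from the forebrains of several mice, so differences between animals within a pool were not seen. In such samples a lower share of a cell type and less RNA per cell cannot be told apart.

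Microglia are the resident macrophages of the brain. In the unperturbed brain they express a set of identity genes, among them the purinergic receptor P2ry12 and the fractalkine receptor Cx3cr1. Near dying neurons and protein deposits they lower that set and raise a damage-associated set that depends in part on the receptor Trem2 and its signalling adaptor Tyrobp. Lysosomal degradation, complement, antigen presentation and interferon-induced genes are other programmes that microglia are known to engage in tauopathy.

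Signals were log2 values per gene, normalised by the authors to the same median in each library, 5.63, for 18588 genes. A difference of 1 is therefore a 2-fold difference, and the read depth of each library is not part of the table. The 7 libraries resembled each other. The correlation across genes was 0.953 to 0.966 between libraries of the same age and 0.933 to 0.964 between ages. The microglial identity markers were abundant in each, with a mean of 9.92 to 10.04 over the 30 markers at 6 months. Mapt, the mouse gene for tau, had 4.46 ± 0.36 (SD, n = 4) at 6 months and 4.71 ± 1.05 (SD, n = 3) at 8 months.

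A gene was called when its false discovery rate (FDR) was under 5% and its change was above 1.5 fold, in a linear model over all 28 libraries that passed quality control. By that rule 1 gene of 18588 was called (0.00538%), and it rose. In WT over the same ages no gene was called (0%), the lowest FDR being 0.249. At an unadjusted p under 0.05, 2685 genes differed in rTg4510 (1097 higher and 1588 lower at 8 months), against 1818 in WT. Leaving out 1 library of the same genotype gave 1804 to 2736 genes in rTg4510 and 1175 to 2720 in WT. These ranges overlapped. The split into higher and lower genes in rTg4510 depended on the scaling. When each library was centred on its genes above the median signal, the genes at that p were 1518 higher and 752 lower, and the median change of all genes moved from −0.04 to 0.02. At the looser limit of an FDR under 10%, which was added after the data were seen, 119 genes were higher (0.640%) and 95 lower (0.511%). They were of unlike kinds. The higher genes had a median change of 1.78 at a median signal of 4.30. In 24 of the 119, all 6 month values were within 3 counts of the lowest the scale allows. The sizes of those changes are uncertain. In WT 106 of the 119 were also above 0, against 7132 of all 18588 genes, and the WT median of the 119 was 0.78. The lower genes had a median change of −0.33 at a median signal of 7.16. In WT 82 of the 95 were also below 0, against 11454 of all 18588 genes, and the WT median of the 95 was −0.13. Of the 214 genes, 82 had an unadjusted p under 0.05 for a difference between the rTg4510 and WT changes (4.52% of all genes). The 214 were chosen by the rTg4510 change, which is part of that difference, so this count is not a test. The length of this list depended on single libraries. It held 0 genes without replicate 1 of 8 months, 9 without replicate 2 of that age, and 72, 1 and 5 without replicates 2, 3 and 4 of 6 months. Genes outside the single call are therefore given below as values.

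The called gene was Atp6v0d2 (chromosome 4, 19876838 to 19922566, GRCm38), which encodes a d subunit of the proton-pumping V-ATPase that is abundant in osteoclasts and macrophages. Its log2 signal was 5.02, 4.74, 4.96 and 4.40 in the 4 libraries at 6 months and 6.12, 6.22 and 6.09 in the 3 libraries at 8 months. Every 8 month library lay above every 6 month library, and the change was 1.36 ± 0.21 (SE), a 2.57-fold rise with an FDR of 0.0467. In WT the gene had 2.26 to 3.01 at 6 months and 2.14 to 2.68 at 8 months, and all 7 of these values were within 3 counts of the lowest the scale allows. The rise continued an earlier one. The rTg4510 mean was 2.39 at 2 months, 3.87 at 4 months, 4.78 at 6 months and 6.14 at 8 months. Atp6v0d2 also had the smallest p of all genes for a difference between the rTg4510 and WT changes, 1.65 ± 0.30 (SE), but that difference had an FDR of 0.347 and did not pass, and its WT part rests on values near the lowest level. The change lay between 1.23 and 1.44 whichever of the 7 libraries was left out, whereas the FDR was above 5% without replicate 3 or 4 of 6 months or replicate 1 or 2 of 8 months, reaching 0.185. In the 8 month library that failed quality control the value was 5.85, also above all 4 libraries at 6 months.

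Other V-ATPase subunits were not called. Of the 21 in the table, Atp6v0d2 was the only one called, 14 were below 0 and the median change was −0.09, against −0.04 over all genes. Atp6v0b, a subunit of the membrane sector, differed by −0.32 (FDR 0.159). Atp6v1f, of the catalytic sector, differed by −0.31 (FDR 0.296).

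**Figure D1:**
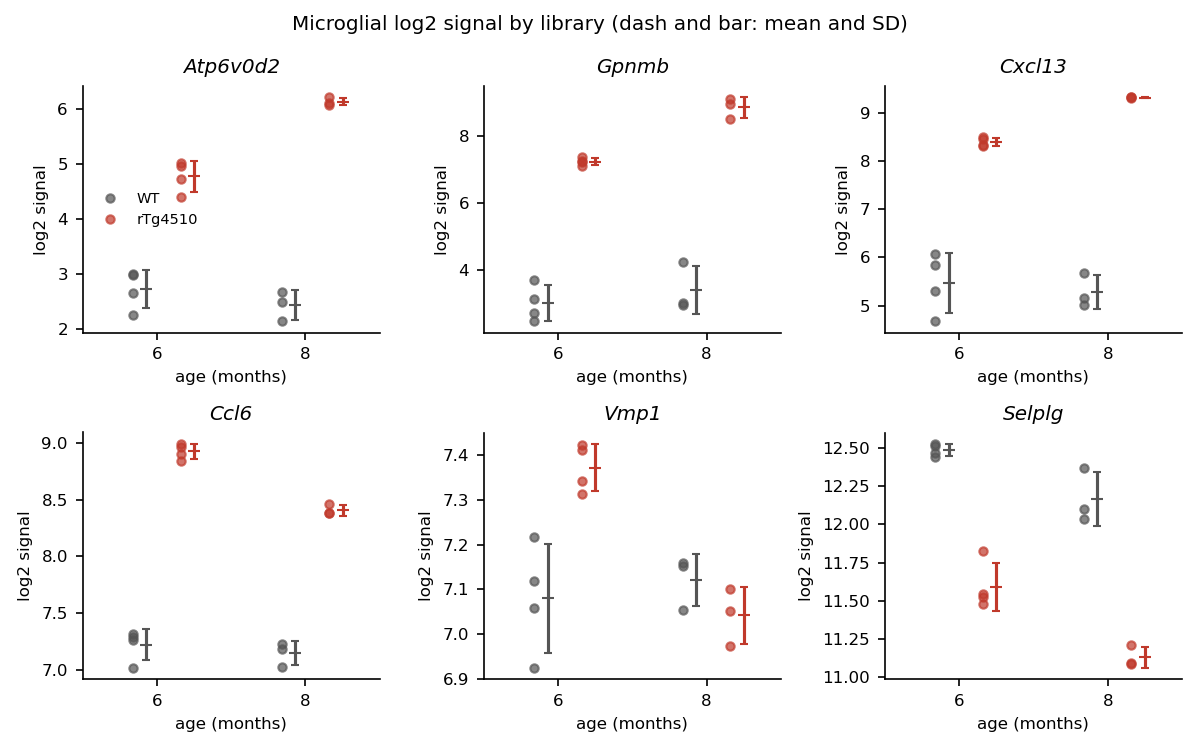
Log2 signal of 6 genes in each microglia library (y axis) at 6 and 8 months of age (x axis), grey for WT and red for rTg4510; points are libraries, and the dash and bar beside them are the group mean and SD. Atp6v0d2 moved from 4.78 to 6.14 in rTg4510 while the 3 WT libraries at 8 months lay between 2.14 and 2.68.

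Gpnmb, a lysosomal transmembrane glycoprotein of lipid-laden and damage-associated macrophages, had the largest change among the 40 damage-associated genes. It stood at 7.10, 7.24, 7.36 and 7.20 at 6 months and at 9.08, 8.95 and 8.50 at 8 months. The groups did not overlap, and the difference of 1.62 ± 0.32 (SE) had an FDR of 0.0515, just outside the limit. WT libraries ranged from 2.47 to 3.69 at 6 months and from 2.95 to 4.23 at 8 months. Of these WT values, 3 of 4 and 2 of 3 were near the lowest level.

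The rest of the damage-associated list was mixed in direction. Among all 40 genes the ages did not overlap in 5 upwards (12.5%, against 5.51% of all genes) and in 8 downwards (20.0%, against 8.30%). Of the 40 genes, 15 were above 0 and 25 below, with a median of −0.07 in rTg4510, which was 0.0080 after quantile normalisation, and 0.03 in WT. The next largest positive values in the list were those of Apoc1, an apolipoprotein (0.62, FDR 0.270), and Spp1, the secreted phosphoprotein osteopontin (0.41, FDR 0.351). Their libraries did not overlap between ages either, at 7.04 to 7.55 and then 7.83 to 8.19 for Apoc1. Ccl6, a macrophage chemokine, went the other way. Its signal was 8.96, 8.84, 8.99 and 8.91 at 6 months and 8.38, 8.46 and 8.38 at 8 months. This difference of −0.52 ± 0.09 (SE) had an FDR of 0.0515, ranked second by p among all genes, and compared with −0.08 in WT. Ccl6 had already been lower at 6 than at 4 months, where its rTg4510 mean was 9.62. Trem2 (−0.30, FDR 0.0894) and Tyrobp (−0.29, FDR 0.0817) were also lower, and their WT values were −0.23 and −0.16.

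Genes that had separated the genotypes at 4 months were followed into this interval. The 4 month libraries are not part of the comparison, although all groups share 1 estimate of the spread. At 4 months 1760 genes were called higher and 804 lower in rTg4510 than in WT. Of the 1760 higher genes, 506 were above 0 and 1254 below from 6 to 8 months, with a median of −0.13, against −0.04 over all genes. In 356 of them all 8 month libraries lay below all 6 month libraries (20.2%, against 8.30% of all genes), and in 78 all lay above (4.43%, against 5.51%). The mean signal of the 1760 genes was 7.73 to 7.83 at 6 months and 7.64 to 7.78 at 8 months, so the ages overlapped. In WT the median of the same genes was −0.05. At an FDR under 10%, 4 of the 1760 were higher, namely Atp6v0d2, Gpnmb, Cxcl13 and C3 (119 of all 18588, 0.640%), and 13 were lower (95 of all, 0.511%), among them Ccl6, Trem2, Tyrobp and Ctsa. The 804 genes lower at 4 months had a median of −0.05, with 352 above 0.

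**Figure D2:**
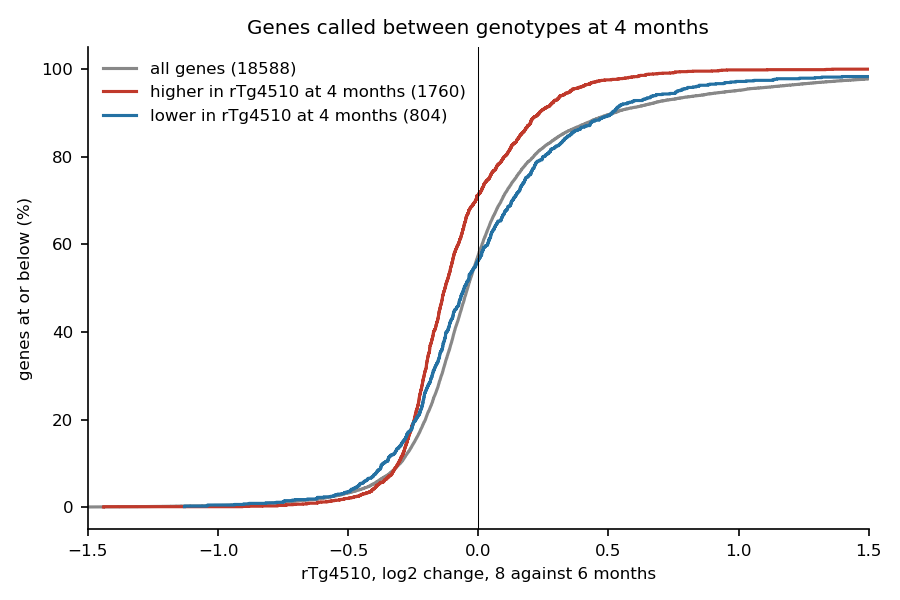
Cumulative share of genes (y axis, %) at or below a given log2 change from 6 to 8 months in rTg4510 (x axis), for all 18588 genes in grey, the 1760 called higher in rTg4510 at 4 months in red and the 804 called lower in blue. The red curve lies left of the grey one through its middle, with medians of −0.13 and −0.04.

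Cxcl13, a chemokine that attracts B cells, had 8.45, 8.33, 8.50 and 8.31 at 6 months and 9.33, 9.32 and 9.31 at 8 months. The 3 later libraries were nearly equal and all above the earlier ones (0.92 ± 0.24 SE, FDR 0.0941), while WT differed by −0.19. C3, the central complement component, was 5.46, 5.26, 5.19 and 5.38 at 6 months and 5.98, 6.00 and 5.68 at 8 months (0.56 ± 0.14 SE, FDR 0.0871). Across the 24 complement genes in the table, 12 were above 0 and 12 below, with a median of 0.04, and C3 was the only one with an FDR under 10%. The ages did not overlap in 4 of the 24 upwards (16.7%, against 5.51% of all genes) and in 7 downwards (29.2%, against 8.30%).

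Several further genes with the lowest FDRs are known from myeloid cells and are named here after their values were seen. Hal, histidine ammonia-lyase, was 4.51, 4.65, 4.47 and 4.87 at 6 months and 5.42, 5.45 and 5.61 at 8 months (0.87 ± 0.15 SE, FDR 0.0515). Gda, guanine deaminase, was 3.37 to 4.02 at 6 months and 4.43 to 4.72 at 8 months (1.03, FDR 0.0515). It had been lower in rTg4510 than in WT at 4 months (−0.93). Clec4e, the C-type lectin receptor Mincle, differed by 1.36 (FDR 0.0680), the aminopeptidase Anpep by 0.73 (FDR 0.0665) and the adhesion receptor Adgre5 by 0.79 (FDR 0.0665). Ages did not overlap for any of these 5 genes, and each also had a positive value in WT, from 0.06 for Gda to 0.59 for Clec4e.

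Some genes of innate immune signalling had small differences of low FDR and are also named after their values were seen. Casp4, the caspase that senses intracellular lipopolysaccharide, was 7.23 to 7.35 at 6 months and 7.54 to 7.67 at 8 months (0.32, FDR 0.0665). Rel, the NF-κB subunit c-Rel, was 8.68 to 8.90 and then 8.998 to 9.22 (0.30, FDR 0.0815). Irf4, an interferon regulatory factor, was 4.86 to 5.07 and then 5.21 to 5.46 (0.41, FDR 0.0728). In WT the 3 genes differed by 0.01, 0.10 and −0.02. The κB motif that NF-κB subunits are known to bind was looked for in the 250 bases before each gene's start (RefSeq, GRCm38.p6), written GGGANTTCC and read on both strands, a motif chosen after the values were seen. It stood in 383 of 27025 such windows (1.42%), in 5 of the 33 matched genes of the 46-gene cytokine and NF-κB list (15.2%, Rel among them), and in the windows of both Rel and Casp4. These windows are shown because they hold the motif, marked in capitals, 91 bases before the start in Rel and 92 and 39 bases before it in Casp4. The window of Irf4 is not given here, so the share among the higher immune genes is not known. Another motif counted, TGANTCA, stood in 10 of the 33 windows of the list (30.3%) and in 6.87% of all windows. The Rel window is chr11:23770970-23771219, minus strand, and the Casp4 window is chr9:5308599-5308848, plus strand.
Rel: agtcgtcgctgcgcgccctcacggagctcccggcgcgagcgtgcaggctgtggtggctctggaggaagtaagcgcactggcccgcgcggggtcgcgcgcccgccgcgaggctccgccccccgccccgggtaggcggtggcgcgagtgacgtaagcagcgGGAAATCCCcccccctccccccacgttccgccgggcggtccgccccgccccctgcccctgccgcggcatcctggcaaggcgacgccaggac
Casp4: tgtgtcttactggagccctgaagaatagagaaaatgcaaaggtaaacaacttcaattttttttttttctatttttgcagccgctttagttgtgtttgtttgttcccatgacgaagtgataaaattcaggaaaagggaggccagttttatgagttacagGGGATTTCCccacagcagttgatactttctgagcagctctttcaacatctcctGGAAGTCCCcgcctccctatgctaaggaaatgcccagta
A match describes these letters and was not tied to the signal. The Gpnmb window held no κB motif, and Atp6v0d2 had no entry.

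The cytokine and NF-κB list itself, of 46 genes, had 31 above 0 and a median of 0.13 in rTg4510 and 0.09 in WT. Il1b, which encodes interleukin-1β, was 7.88 to 8.89 at 6 months and 8.82 to 9.47 at 8 months. It differed by 0.75 (FDR 0.192) against 0.91 in WT. Ptgs2, the inducible cyclooxygenase, differed by 0.93 with overlapping ages (FDR 0.290). Il12b, a subunit of interleukin-12, differed by 0.77 (FDR 0.338) with overlapping ages, and its 7 WT values were near the lowest level.

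Type I interferon-induced genes were mostly higher at 8 months without a member passing the test. Of 40 genes, 28 were above 0, with a median of 0.23 against 0.05 in WT and −0.04 over all genes. In 8 of them the ages did not overlap upwards (5.51% of all genes), and in 0 downwards (8.30% of all genes). The list mean was 5.91 to 6.21 at 6 months and 6.23 to 6.30 at 8 months. Oasl2, an oligoadenylate synthetase-like protein, was 4.91 to 5.11 and then 5.64 to 5.80 (0.72, FDR 0.178), and had a similar value in WT (0.55). Ifi204, a nucleic acid sensor, was 4.87 to 5.17 and then 5.47 to 5.51 (0.48, FDR 0.193; WT 0.01). Gbp4, an interferon-inducible GTPase not in that list, was 3.52 to 3.64 and then 4.48 to 4.53 (0.92, FDR 0.0661; WT 0.35). Irf7, the interferon regulatory factor that amplifies the response, differed by 0.53 with overlapping ages (FDR 0.346).

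Among antigen presentation genes, the 20 of MHC class I had 11 above 0, a median of 0.07 and −0.03 in WT. In 6 of them all 8 month libraries lay above all 6 month libraries (5.51% of all genes) and in 3 below (8.30% of all genes). The list mean was 6.62 to 6.77 at 6 months and 6.77 to 6.89 at 8 months. Tap1, which carries peptides into the endoplasmic reticulum, was 4.76 to 4.96 and then 5.05 to 5.35 (0.34, FDR 0.0845; WT −0.01). H2-K1, a classical class I heavy chain, differed by 0.31 (FDR 0.225). The 12 MHC class II genes had a median of 0.03 in both genotypes, with 7 above 0 in rTg4510.

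Microglial identity genes lay lower at 8 months in both genotypes. In rTg4510, 29 of the 30 were below 0 and the median was −0.23, against −0.19 in WT, where 28 were below 0. All 8 month libraries lay below all 6 month libraries in 15 of the 30, against 8.30% of all genes, and in WT in 7, against 5.49%. At an FDR under 10% there were 6 in rTg4510, all lower, against 0.511% of all genes. Selplg, the P-selectin ligand, was 11.48, 11.52, 11.82 and 11.54 at 6 months and 11.09, 11.09 and 11.21 at 8 months (−0.46 ± 0.09 SE, FDR 0.0515; WT −0.32). Gpr34, a lysophospholipid receptor, differed by −0.38 (FDR 0.0552) and the protease inhibitor Cst3 by −0.35 (FDR 0.0620). Sparc, a matrix-binding protein, and Siglech, a sialic acid-binding lectin, were also among them. P2ry12 (−0.31), Tmem119 (−0.25), Cx3cr1 (−0.23) and the CSF1 receptor gene Csf1r (−0.14) did not pass, with FDRs from 0.181 to 0.327. For none of the 9 genes named here was the difference from the WT change under an unadjusted p of 0.05. Their changes were at most 1.38 fold. That of Cst3 vanished after quantile normalisation, but that scaling gives equal values to genes of equal rank. It cannot show a change in a gene that keeps its rank. The Cst3 change was −0.40 to −0.31 whichever rTg4510 library was left out.

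Lysosomal genes were lower as well. Of 59 genes 53 were below 0, the median was −0.14 (WT −0.11), and 26 were below without overlap of the ages (8.30% of all genes) while 0 were above (5.51% of all genes). The median was −0.08 when libraries were centred on genes above the median signal and −0.07 after quantile normalisation. Ctsa, a lysosomal carboxypeptidase, was 11.34 to 11.50 and then 11.17 to 11.21 (−0.23 ± 0.04 SE, FDR 0.0515). Lamp2, a lysosomal membrane protein, differed by −0.24 (FDR 0.0665), the asparaginyl endopeptidase Lgmn by −0.20 (FDR 0.0810), the arylsulfatase Arsb by −0.29 (FDR 0.0728) and the acid ceramidase Asah1 by −0.25 (FDR 0.0842). The E-box CACGTG, a core of the element through which TFEB is known to act on lysosomal genes, stood in 11 of 48 matched promoter windows of the list (22.9%) against 6.05% of all windows, and in none of those of Ctsa, Lamp2, Lgmn or Arsb.

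The housekeeping machinery followed the same direction with small values. Of the 85 cytosolic ribosomal protein genes, 83 were below 0, with a median of −0.22 and −0.12 in WT, and the ages did not overlap in 51, all lower (8.30% of all genes). In WT they did not overlap in 5 lower (5.49% of all genes) and 1 higher (3.08% of all genes). For 0 of the 85 genes was the difference from the WT change under an unadjusted p of 0.05 (4.52% of all genes). Rps29, a small subunit protein, was 10.31 to 10.64 and then 10.02 to 10.26 (−0.35, FDR 0.159). Of 74 nuclear genes of oxidative phosphorylation 72 were below 0 (median −0.16, WT −0.06), of 78 mitochondrial ribosomal protein genes 67 (median −0.16, WT −0.10) and of 38 proteasome genes 36 (median −0.14, WT −0.05). Atp5e, a subunit of ATP synthase, differed by −0.36 (FDR 0.0894), Mrps5 of the mitochondrial ribosome by −0.48 (FDR 0.0661; WT 0.04) and Psmd14, the proteasome's deubiquitinase, by −0.31 (FDR 0.0661). The oxidative phosphorylation median was −0.10 when libraries were centred on genes above the median signal and −0.23 with all 32 libraries.

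The 42 mitosis genes had a median of 0.09 from 6 to 8 months, after −0.96 from 4 to 6 months. The 36 DNA replication genes had 18 above 0 and 18 below, with a median of 0.0067. Among these Tk1, the S-phase thymidine kinase, was 4.50 to 5.10 and then 5.31 to 5.53 (0.63, FDR 0.0897; WT −0.14). Among 24 cholesterol synthesis genes 17 were above 0 (median 0.13, WT −0.01), with Lss, lanosterol synthase, at 0.42 (FDR 0.250).

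**Figure D3:**
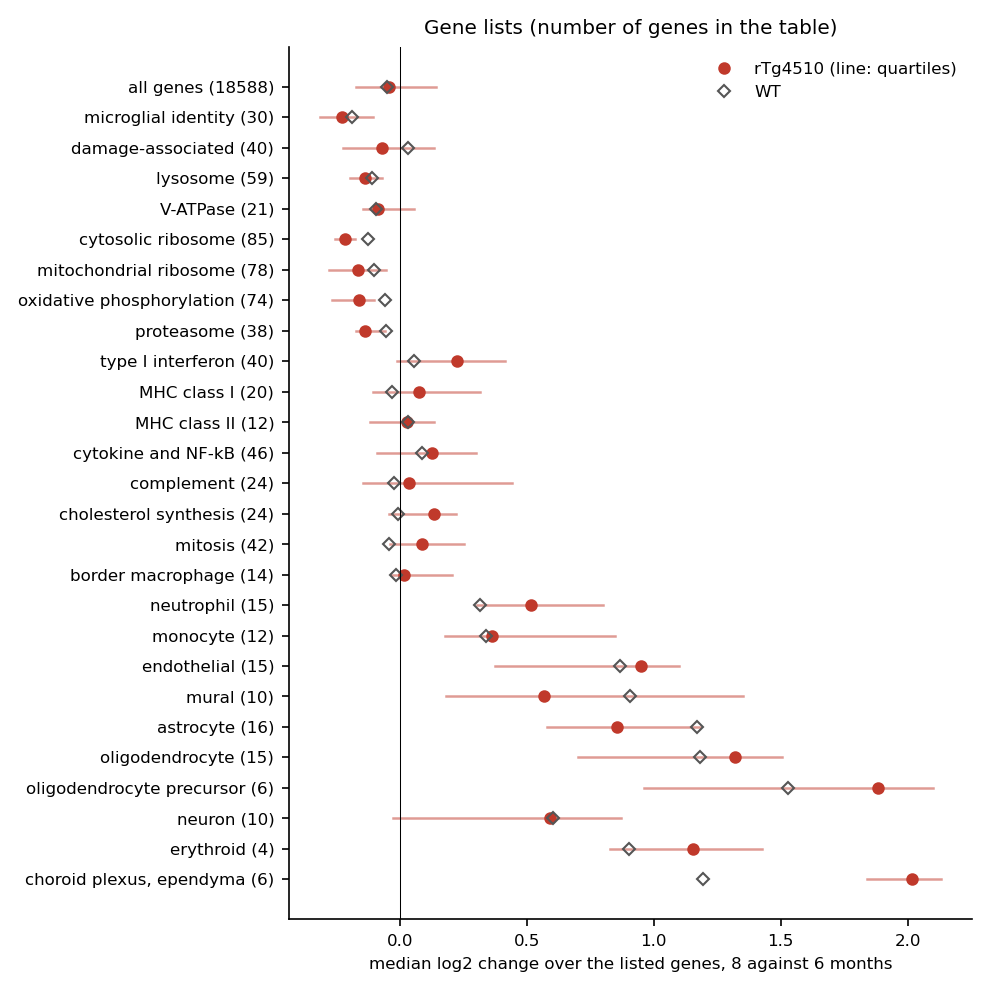
Median log2 change from 6 to 8 months over each gene list (x axis), red circles for rTg4510 with a line from the lower to the upper quartile of its genes, open diamonds for WT, and the number of genes in brackets. Most lists of other cell types lie to the right in both genotypes, such as the oligodendrocyte list at 1.32 and 1.18. The microglial identity list lies at −0.23 and −0.19.

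Markers of cells other than microglia had mostly positive median changes from 6 to 8 months in both genotypes. Their part in the values above was not tested. In rTg4510 the median was 0.95 over 15 endothelial genes, 0.85 over 16 astrocyte genes, 1.32 over 15 oligodendrocyte genes, 1.88 over 6 oligodendrocyte precursor genes, 0.59 over 10 neuronal genes and 2.02 over 6 choroid plexus and ependymal genes. In WT these medians were 0.87, 1.17, 1.18, 1.53, 0.60 and 1.19. WT oligodendrocyte means were 5.08 to 5.58 at 6 months and 7.71, 6.22 and 5.26 at 8 months. WT neuronal means were 3.84 to 4.61 and then 5.39, 4.40 and 4.23, so the ages overlapped for both lists. The rTg4510 neuronal means also overlapped, at 2.96 to 3.91 and then 3.81 to 4.40. By gene, WT ages did not overlap upwards in 10 of 15 endothelial, 2 of 15 oligodendrocyte and 0 of 10 neuronal genes (3.08% of all genes). In rTg4510 these counts were 11, 5 and 1 (5.51% of all genes). The rTg4510 endothelial median was 0.55 with all 32 libraries, 0.58 after quantile normalisation and 0.29 over members above the 25th percentile of signal. The mean of the endothelial list was 3.59 to 4.13 at 6 months and 4.42 to 4.93 at 8 months, and all 15 genes were above 0. Cldn5, the tight junction claudin of brain endothelium, was 4.36 to 5.68 and then 5.73 to 6.97 (1.32, FDR 0.275; WT 1.19). Pdgfra, the receptor that marks oligodendrocyte precursors, was 3.98, 3.35, 1.36 and 2.05 and then 5.63, 5.52 and 5.38 (2.82, FDR 0.0728; WT 1.88), with 2 of the 6 month values within 3 counts of the lowest the scale allows. Ttr, the transthyretin of the choroid plexus, was 9.16 to 10.83 and then 11.34 to 12.70 (2.26, FDR 0.174; WT 0.98). Miat, a long non-coding RNA of neurons and other cells, was near that lowest level in all 4 libraries at 6 months and at 4.07 to 6.31 at 8 months. The mean of the 8 month values was 5.79-fold above the mean level of 3 counts in the 6 month libraries. This does not hold for each 8 month library.

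Replicate 1 of 8 months had the highest glial marker signal in rTg4510, as did replicate 1 of 8 months in WT (oligodendrocyte mean 7.71, astrocyte mean 7.15). The rTg4510 replicate's oligodendrocyte mean was 6.86, against 5.43 and 4.93 in the other 8 month libraries and 4.31 to 4.83 at 6 months, and the astrocyte mean was 5.96 against 5.03 and 5.08. Without it the oligodendrocyte median was 0.64, the oligodendrocyte precursor median 1.13, the astrocyte median 0.51, the neuronal median 0.32 and the endothelial median 0.99, while the microglial identity median was −0.19 and the lysosomal median −0.12. The library that failed quality control had an endothelial mean of 3.58, just below the 6 month range, an oligodendrocyte mean of 4.78, within it, and an identity mean of 9.87. Among blood cell lists, the 4 erythroid genes had a median of 1.16 (WT 0.90), or 0.79 without replicate 1 of 8 months. The 15 neutrophil genes had a median of 0.52 (WT 0.32), or 0.82 without that replicate, and the 12 monocyte genes 0.36 (WT 0.34). Border macrophage genes stood at 0.02 (WT −0.01), with Mrc1, the mannose receptor that marks them, at 0.21 (FDR 0.622). Ace, angiotensin-converting enzyme, and Fn1, fibronectin, were the monocyte-list genes with an FDR under 10% (1.49 and 0.83). WT values were 0.72 and 0.70.

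**Figure D4:**
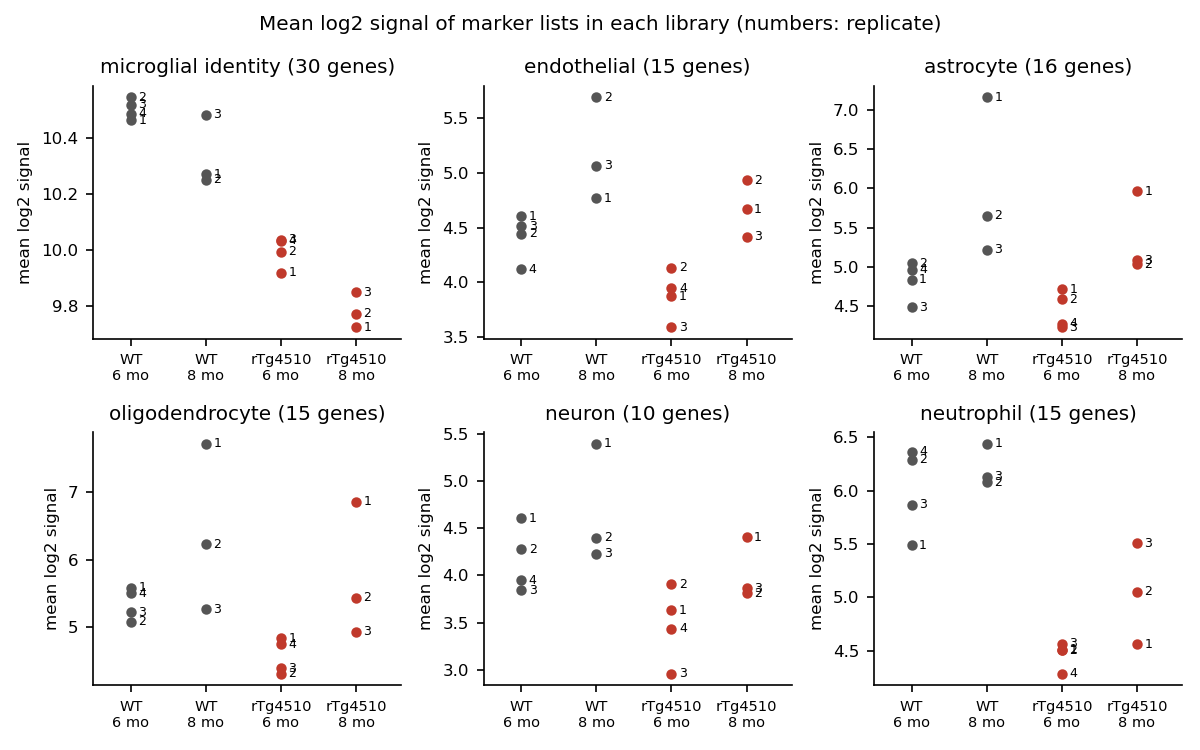
Mean log2 signal (y axis) of 6 marker lists in each WT (grey) and rTg4510 (red) library at 6 and 8 months, each point numbered by its replicate. In rTg4510 the 3 libraries at 8 months lie below the 4 at 6 months for microglial identity (9.72 to 9.85 against 9.92 to 10.04) and above them for endothelial markers.

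Whether the rTg4510 change differed from the WT change was tested for every gene, and 0 of 18588 passed (0%). At an unadjusted p under 0.05 there were 841 genes (4.52%). The FDRs given here did not pair same-numbered rTg4510 and WT libraries of an age. With that pairing as a fixed block 0 genes passed, and the lowest FDR was 0.0506. Across genes the changes of the genotypes had a correlation of 0.529, as a description over 18588 genes that share libraries within each genotype, and 11720 genes had the same sign. In WT the ages did not overlap for 573 genes upwards (3.08%) and for 1020 downwards (5.49%). After Atp6v0d2 the named genes with the largest statistics towards rTg4510 were Slc25a30, a mitochondrial carrier, and Camk4, a calcium/calmodulin-dependent kinase, after 2 pseudogenes. Camk4 was 7.52, 6.82, 6.46 and 6.55 at 6 months and 7.55, 7.90 and 7.63 at 8 months, a change of 0.85 ± 0.21 (SE) against −0.48 in WT. The difference of 1.34 had an FDR of 0.797. Slc25a30 differed by 0.27 in rTg4510 and −0.52 in WT, with overlapping rTg4510 ages.

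In the other direction the leading genes were Polr2b, Vmp1, Mrgprf and Ergic2, besides 1 pseudogene. Vmp1, an endoplasmic reticulum protein of autophagosome formation, was 7.31, 7.42, 7.34 and 7.41 at 6 months and 6.97, 7.05 and 7.10 at 8 months (−0.33 ± 0.06 SE, FDR 0.0515). At 6 months it was 0.29 above WT, and at 8 months 0.08 below it, the WT change being 0.04. The difference between the changes was −0.37 with an FDR of 0.835. Polr2b, the second largest subunit of RNA polymerase II, differed by −0.16 and by 0.09 in WT. Ergic2, of the endoplasmic reticulum to Golgi compartment, differed by −0.38 and by 0.12. Mrgprf, a receptor gene, differed by −0.89 in rTg4510 and by 2.28 in WT. It was near the lowest level in all 3 rTg4510 libraries at 8 months. In WT it was near that level in all 4 libraries at 6 months and in 0 of 3 at 8 months.

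**Figure D5:**
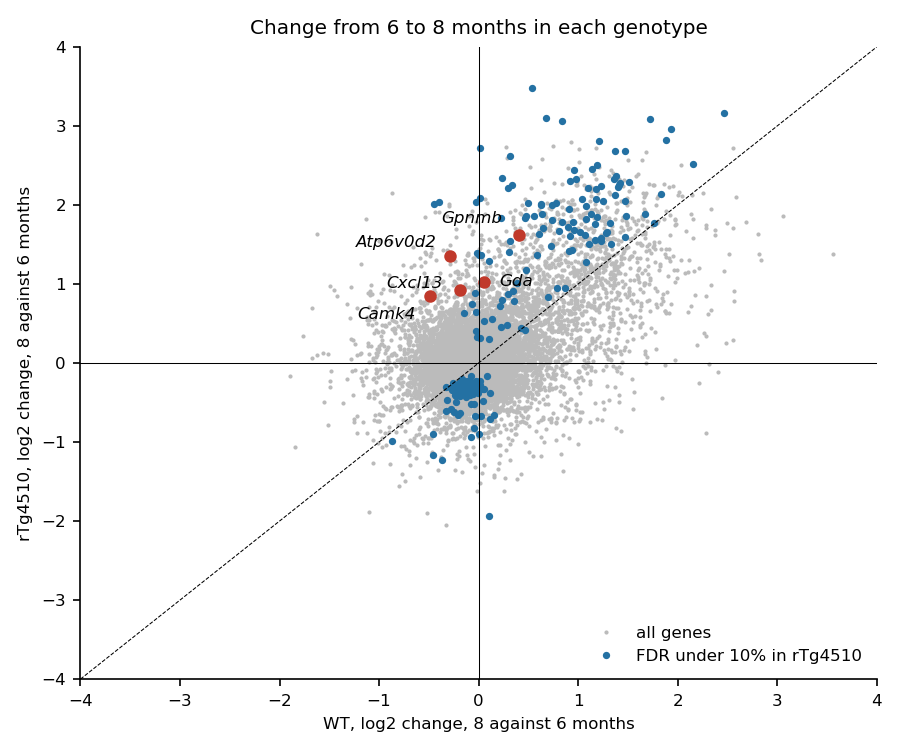
Log2 change from 6 to 8 months in rTg4510 (y axis) against WT (x axis) for each of 18588 genes, grey, with the 214 genes of FDR under 10% in rTg4510 in blue and 5 genes named in red; the dashed line marks equal changes. Most blue points lie in the upper right or the lower left, whereas Atp6v0d2, Camk4 and Cxcl13 lie above 0 in rTg4510 and below 0 in WT, where the Atp6v0d2 values were near the lowest level.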

How the data were processed

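Microglia RNA from WT and rTg4510 mice was sequenced in 32 libraries, of which 4 failed the study's quality control and 28 entered the fit. The authors deposited log2 gene signals, made by summing reads over exons, dropping exons with few counts, fitting a robust linear model over each gene's exons and normalising to a common median. The genome build is GRCm38 per the labels, and the aligner was not given in the sources used here. Deposited Entrez identifiers were matched to RefSeq GRCm38.p6 for 17828 of 18588 genes (95.9%).

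A linear model per gene with 8 genotype and age groups was fitted with limma 3.58.1 in R 4.3.3, with unmoderated variances (20 residual degrees of freedom) and contrasts for 8 against 6 months in each genotype and for their difference. Benjamini-Hochberg adjustment ran over all 18588 genes. The call needed both an adjusted p below 0.05 and more than 1.5 fold. A value was taken as near the lowest level when it lay within 3 counts of its library's minimum, reading the steps of the lowest values as log2 of a count plus a constant. The comparison, gene lists and named genes were chosen with earlier results of these data known, so lists are given as counts and medians without a test. Genes were named when called with ages that did not overlap, when among up to 6 members of a list with the largest change, when among the 5 largest statistics for the genotype difference in each direction, to check cell types, or, where said, after their values were seen. Pseudogenes were counted and not named, and some list members are not reported here. On simulated signals with 200 changed genes of 18588, 22% of genes changed by 0.6, 60% of those changed by 1 and 92% of those changed by 2 on the log2 scale were called in this contrast. Read depth is not part of the deposited table, so precision was judged from the spread between libraries, and the median SE of the rTg4510 change was 0.177. Each library was its own pool of animals as far as the labels tell, and p-values measure only the spread between these libraries. Other variance estimates, library sets, scalings, filters, replicate blocks and leaving out each library were tried.

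Same-numbered rTg4510 libraries of 6 and 8 months did not deviate together (correlations −0.0913 to 0.0986), whereas same-numbered rTg4510 and WT libraries of an age did (0.131 to 0.291).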

Additional observations from a re-analysis of the deposited data

Results flagged for a closer look

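Single libraries stood apart from the other 3 of their group, by Dixon's criterion for 4 samples, in 12 of 186 gene and group pairs examined at 6 months. Chance flags about 1 in 20 groups. In rTg4510, H2-K1 was 7.43 in the fourth library against 7.13 to 7.17 in the others. The third rTg4510 library was high for Tmem119 (11.28, others 10.86 to 10.89), Rplp1 (9.67, others 9.22 to 9.28), Lcn2 (5.41, others 4.67 to 4.72) and Ergic2 (6.78, others 6.50 to 6.54). Irf7 was 5.15 in the first rTg4510 library, others 4.10 to 4.22. In WT the first library was low for Ccl6 (7.01, others 7.26 to 7.31) and Cst3 (17.07, others 17.21 to 17.23) and high for Ace (4.80, others 3.75 to 3.91). The second WT library was low for Spp1 (3.75, others 4.43 to 4.47) and Mrc1 (9.23, others 9.62 to 9.70). Nlrc5 was 4.34 in the third WT library, others 3.70 to 3.80.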

How the results depend on the processing

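The count of called genes in rTg4510 was 1, and it was 3 with moderated variances, 2 with all 32 libraries and 0 with quantile normalisation. Among genes above the 25th percentile of signal, a set without Atp6v0d2, it was 0. With a replicate block over all ages it was 23, although the numbers did not pair the ages, and with a random replicate block within age it was 9. Leaving out 1 library at a time gave 0 to 24 called genes. It gave 0 without rTg4510 replicate 3 or 4 of 6 months or replicate 1 or 2 of 8 months, 6 and 4 without replicates 1 and 2 of 6 months, and 7 without replicate 3 of 8 months. Leaving out WT libraries acts only through the shared spread, was tried after the data were seen, and gave 0 without replicate 2 or 3 of 6 months, 2 without replicate 1 of 6 or of 8 months, and 21 and 24 without replicates 2 and 3 of 8 months. The gene called was not always Atp6v0d2, which missed the limit with all 32 libraries (1.29), with the 7 rTg4510 libraries alone (1.36) and with quantile normalisation (1.32); its change kept its sign in each of the 14 alternatives. Hal was called in 4 alternatives. The 214 genes with an FDR under 10% became 1 to 240 under the other settings and 0 to 202 when 1 rTg4510 library was left out. WT gave 0 called genes, and 0 to 6 when 1 library was left out, the 6 being without WT replicate 3 of 8 months. The difference between the genotypes gave 0 in every alternative, pairing within age included. With a fixed replicate block within age its lowest FDR was 0.0506 and 3 genes were under 10%. With a random block within age the lowest FDR was 0.12. The median of genes higher at 4 months was −0.0706 when centred on genes above the median and −0.0624 after quantile normalisation, and −0.16 to −0.10 when 1 library was left out. The median of genes lower at 4 months was −0.00125 with all 32 libraries, 0.00361 when centred, and −0.06 to −0.01 when 1 library was left out. The microglial identity median ranged from −0.23 to −0.11 over other settings and the interferon median from 0.17 to 0.28. The endothelial median was 0.55 with all 32 libraries and 0.29 over its members above the 25th percentile. Why these values moved was not tested. With 4 against 3 libraries an exact permutation test of a single value cannot go below 0.0571.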

Other observations

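The rTg4510 library of 8 months that failed quality control was not part of the comparison, and its values were set beside those of the 6 month libraries for 93 named genes. It lay outside the 6 month range in the same direction as the 3 libraries compared for 54 genes, in the opposite direction for 8 and within the range for 31. Gpnmb was 8.85, Cxcl13 9.95, Hal 5.63 and C3 5.60, each above the 4 libraries at 6 months. Ccl6 was 8.03 and Selplg 11.09, each below them. Gda was 3.65 and Trem2 11.14, both within the 6 month range. Casp4 was 7.10, Rel 8.67 and Gbp4 3.31, each below the 4 libraries at 6 months, and P2ry12 was 10.94 and Arsb 11.44, each above them, all opposite to the 3 libraries compared.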
